A study of Homo sapiens with 3 samples.

Results

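The PI3K-AKT-mTOR pathway was described here through 39 of its genes, from the cell surface receptors to the substrates of the last kinase, together with the pathway inhibitor PIK3IP1. The members were chosen by name, as rows of the deposited count table whose symbol was on a list of pathway genes. That list was made with earlier results of these data known. The members made up 39 of the 14524 genes that could be tested, and the table held 57736 gene rows in all. RNA was sequenced from TOV21G, a human ovarian clear cell carcinoma line described in the labels as mutated in ARID1A, which encodes a part of the SWI/SNF remodelling machinery. The HDAC2 knockdown group held 2 libraries, from cells transduced with lentivirus carrying shRNA 1 or shRNA 2 against HDAC2, a class I histone deacetylase. The WT group held 1 library of TOV21G cells with HDAC2 at its native level. All 3 libraries share the ARID1A mutation, since they come from the same line. The labels name no control virus for the WT cells, and they do not pair the hairpin sequences with the numbers 1 and 2. The study ties HDAC2 to this pathway through PIK3IP1.

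In this pathway, activated receptors such as the insulin receptor recruit class I PI3K, a dimer of a catalytic and a regulatory subunit, to the plasma membrane. The kinase makes phosphatidylinositol trisphosphate, a lipid that draws AKT to the membrane, where PDK1 and the mTORC2 complex phosphorylate it. Active AKT phosphorylates FOXO transcription factors, which keeps them out of the nucleus, and the GSK3 kinases, which it inhibits, and it releases RHEB to switch on mTORC1, the complex that drives translation. The pathway is known to be activated often in ovarian clear cell carcinoma, and PIK3IP1 is a transmembrane protein that binds the catalytic subunit of PI3K and lowers its activity.

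The libraries held 11398791 counts with shRNA 1, 11225492 with shRNA 2 and 10138479 in WT. HDAC2 itself stood at 33.4 and 51.6 CPM (counts scaled to library size with TMM factors) with shRNA 1 and shRNA 2, against 105 CPM in WT cells. HDAC2 fell by 1.31 ± 0.20 on the log2 scale (SE, adjusted p = 4.82e-04, quasi-likelihood test of edgeR, p-values adjusted by Benjamini-Hochberg), so both knockdown libraries matched their labels. The epithelial markers PAX8, KRT8 and KRT18 were abundant, with PAX8 at 2871 and 1969 counts with the hairpins and 2625 in WT. KRT7, KRT19, CDH1 and NAPSA had at most 20 counts in any library, so these other epithelial markers were near absent. Of 15 leukocyte markers, 4 were at 0 in all libraries and the list summed to 5.58 and 3.18 CPM with the hairpins and 5.82 CPM in WT. Of 8 fibroblast markers, 3 were at 0, and the list summed to 24.3 and 38.7 CPM with the hairpins and 16.1 CPM in WT, mostly from COL1A2 with 220, 335 and 87 counts in that order. Endothelial markers summed to 0.872 and 0.354 CPM with the hairpins and 0.201 CPM in WT. The part of fibroblast-type RNA in the results below was not tested, and in these bulk libraries fewer cells of a type and less RNA per cell cannot be told apart. The labels do not say that the libraries are separate cultures beyond the hairpins, the lone WT library was assumed to vary like the knockdown pair, and p-values measure only the spread between these libraries.

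Most of the pathway did not pass the test. GSK3B, PIK3R3 and PIK3CA rose in the knockdown libraries and EIF4EBP1 fell, by 0.57 to 0.80 in size on the log2 scale, and the other 35 members did not pass an adjusted p of 0.05. Across all genes 7.72% passed, 3.96% upward and 3.76% downward, and 4 of 39 members is near that background. An unadjusted p below 0.05 was reached by 16 of 39 members (41.0%), 10 upward and 6 downward, against 23.5% of all genes. With both hairpins 20 members (51.3%) stood above WT, against 39.9% of all genes, and 10 members (25.6%) stood below WT, against 39.3% of all genes. The other 9 members lay on opposite sides of WT with the 2 hairpins. The median log2 change was 0.09 over the members and 0.01 over all genes tested. All 39 members passed the filter on low counts, INPP5D only through the knockdown libraries, and it is counted among the 16 and the 20 members above.

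**Figure D1:**
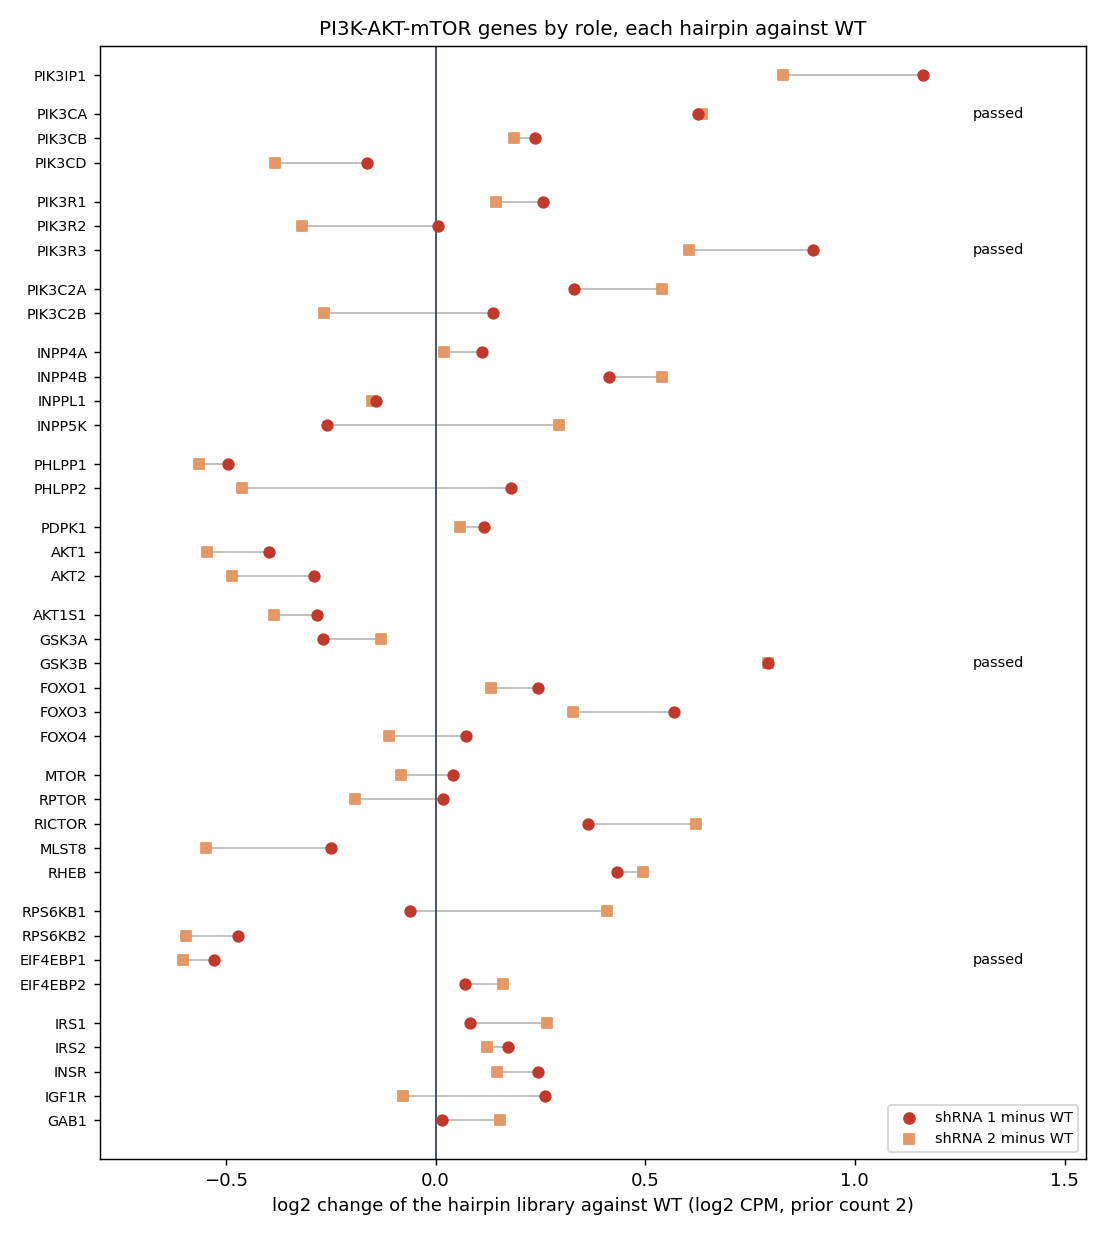
Log2 change of each hairpin library against WT (x axis, log2 CPM with a prior count of 2) for 38 members grouped by role down the page, with circles for shRNA 1 and squares for shRNA 2; INPP5D, at 0 counts in WT, is left out. PIK3IP1 lies farthest to the right at 1.16 and 0.83, and the 4 members that passed the test (marked) have both hairpins on the same side of WT.

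PIK3IP1 (ENSG00000100100, chromosome 22, 31281593 to 31292534, minus strand, GRCh38) had 67 counts with shRNA 1 and 52 with shRNA 2, against 25 in WT. These equal 5.85 and 4.60 CPM in the knockdown libraries and 2.51 CPM in WT, so both knockdown libraries were above WT, at 233% and 183% of its level. The fitted change was 2.08-fold, or 1.06 ± 0.41 on the log2 scale (SE, 95% interval 0.20 to 1.91), the largest among the 38 members with a count in WT. It did not pass the test across all genes (unadjusted p = 0.0178, adjusted p = 0.119). Counting error alone is wide at this depth, with exact Poisson 95% intervals of 51.9 to 85.1 counts for shRNA 1, 38.8 to 68.2 for shRNA 2 and 16.2 to 36.9 for WT. PIK3IP1 was among the least abundant members, at 1.93 and 1.52 CPM per kilobase in the knockdown libraries and 0.83 in WT, rank 38 of 39 in WT. The antisense gene PIK3IP1-AS1, which overlaps 0.946% of its exonic bases, had 1 count in each library.

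PIK3IP1 is the member the study tied to HDAC2, so the 250 bases before its transcription start are shown beside those of GSK3B and PIK3R3, which rose. The windows come from RefSeq (GRCh38.p14), read 5′ to 3′ on the minus strand of each gene. Capitals mark matches on either strand to the GC box GGGCGG or the CCAAT box CCAAT. Also searched, with no match in these windows, were the FOXO core TGTTTAC, the E-box CACGTG, the CRE TGACGTCA and the TATA box TATAAA. The marked matches do not overlap one another.
PIK3IP1, chr22:31292535-31292784: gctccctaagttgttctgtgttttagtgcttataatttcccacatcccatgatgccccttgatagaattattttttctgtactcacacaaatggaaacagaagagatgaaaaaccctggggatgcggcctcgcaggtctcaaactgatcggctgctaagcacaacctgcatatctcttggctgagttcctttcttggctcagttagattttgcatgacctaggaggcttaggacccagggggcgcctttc
GSK3B, chr3:120094448-120094697: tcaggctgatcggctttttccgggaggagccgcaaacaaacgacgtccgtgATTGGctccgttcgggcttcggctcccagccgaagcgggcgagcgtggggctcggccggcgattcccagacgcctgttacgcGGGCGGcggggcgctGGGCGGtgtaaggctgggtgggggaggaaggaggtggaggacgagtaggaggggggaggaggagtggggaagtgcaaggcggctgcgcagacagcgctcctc
PIK3R3, chr1:46133037-46133286: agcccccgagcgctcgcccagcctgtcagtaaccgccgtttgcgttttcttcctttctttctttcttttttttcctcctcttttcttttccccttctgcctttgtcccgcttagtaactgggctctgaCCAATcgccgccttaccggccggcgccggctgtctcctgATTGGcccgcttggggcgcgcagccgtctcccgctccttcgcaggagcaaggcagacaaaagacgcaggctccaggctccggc
The PIK3IP1 window held 46.8% GC and 4 CpG pairs and none of the 6 motifs, and part of it is an exon of PIK3IP1-AS1. The GSK3B window held 68.8% GC, 27 CpG pairs, 2 GC boxes and 1 CCAAT box. The PIK3R3 window held 60.4% GC, 21 CpG pairs and 2 CCAAT boxes. RefSeq gives 6 windows for PIK3R3 and 2 for PIK3IP1, and the one shown ends at the gene's start in GENCODE. Other PIK3R3 windows hold 2 GC boxes, 1 TATA box or CCAAT boxes, and the other PIK3IP1 window holds none of the 6 motifs. The window of PIK3CA, which also rose, reaches into its own exons and is not shown, and it holds 1 FOXO core, 1 GC box and 1 CCAAT box. Over 34943 RefSeq windows of the same length, the median was 58.0% GC and 11 CpG pairs. A GC box was present in 42.5% of them, a CCAAT box in 32.0%, a TATA box in 10.8%, an E-box in 6.32%, a FOXO core in 2.98% and a CRE in 1.63%. RefSeq windows matched 35 of the 39 members.

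Among the catalytic subunits of class I PI3K, PIK3CA was higher in the knockdown libraries, at 39.3 and 39.5 CPM (450 and 447 counts), against 25.4 CPM in WT (253 counts). PIK3CA rose by 0.63 ± 0.19 on the log2 scale (SE, adjusted p = 0.0487). The call was lost with DESeq2 size factors (adjusted p = 0.0569), with upper quartile scaling and with a stricter filter, and the change was 0.23 with the GC trend of all genes removed (adjusted p = 0.549). Of its read-length sequences, 36.3% are shared with other genes, most of them with KCNMB3 on the opposite strand, which had 1, 0 and 0 counts with shRNA 1, with shRNA 2 and in WT. PIK3CB, which encodes the beta catalytic subunit, had 43.9 and 42.4 CPM with the hairpins and 37.2 CPM in WT, and did not pass. PIK3CD, the delta subunit best known from leukocytes, had 10.6 and 9.11 CPM with the hairpins and 11.9 CPM in WT, and did not pass. Summed per kilobase, PIK3CA made up 31.6% and 33.0% of class I catalytic RNA in the knockdown libraries and 24.8% in WT.

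Among the regulatory subunits, which hold the catalytic subunit inactive until a receptor is engaged, PIK3R3 was higher in both knockdown libraries, at 95.8 and 78.0 CPM, against 51.3 CPM in WT (1098, 882 and 511 counts). PIK3R3 rose by 0.76 ± 0.19 on the log2 scale (SE, adjusted p = 0.0163). It shares 16.3% of its read-length sequences with AL358075.4, an overlapping gene on the same strand. PIK3R1, the most studied regulatory subunit, had 47.3 and 43.7 CPM with the hairpins and 39.5 CPM in WT. PIK3R2 had 79.2 and 63.3 CPM with the hairpins and 79.0 CPM in WT, so shRNA 1 was at the WT level and shRNA 2 below it. Neither passed the test, and a further row with the symbol PIK3R2, a gene that overlaps 87.2% of its exonic bases, had 0 counts. Per kilobase, PIK3R3 made up 39.3% and 38.8% of this family in the knockdown libraries and 26.6% in WT, while PIK3R2 made up 45.2% and 43.8%, against 57.0% in WT.

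The class II enzymes, which make other phosphoinositides, gave no call. PIK3C2A had 121 and 140.0 CPM with the hairpins and 96.2 CPM in WT, a log2 change of 0.44 ± 0.18 (SE, adjusted p = 0.139). PIK3C2B had 22.4 and 16.9 CPM with the hairpins and 20.4 CPM in WT, on both sides of the WT level.

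None of the 5 inositol phosphatases, which remove phosphates from the PI3K products, passed the test, and the result for INPP5D is not read. INPP5D, which encodes SHIP1 and is best known from blood cells, had 9 and 12 counts with the hairpins and 0 in WT. Taking 3 counts as the limit that a count of 0 allows in WT, the mean of the knockdown libraries was 3.07-fold that limit. It was 2.61-fold with shRNA 1 and 3.53-fold with shRNA 2, without the counting error of the hairpin libraries. Exact Poisson 95% intervals were 4.1 to 17.1 counts for shRNA 1, 6.2 to 21.0 for shRNA 2 and 0 to 3.7 for WT. Since INPP5D entered the test only through the knockdown libraries, no p is read from it. Its levels were 0.785 and 1.06 CPM in the knockdown libraries, and PTPRC, which marks leukocytes, had 2 and 0 counts there and 2 in WT. Some other leukocyte markers had more, with 13, 11 and 11 counts for CORO1A and 16, 6 and 25 for LYZ (shRNA 1, shRNA 2, WT). The 15 leukocyte markers summed to 64, 36 and 58 counts in that order. INPP4B had 28.0 and 30.6 CPM with the hairpins and 21.0 CPM in WT, a log2 change of 0.48 ± 0.21 (SE, adjusted p = 0.160). It encodes a phosphatase of the product that follows from SHIP action, as does INPP4A, whose 22.3 and 20.9 CPM with the hairpins stood beside 20.6 CPM in WT. INPPL1, the SHIP2 gene, had 21.7 and 21.6 CPM with the hairpins and 24.0 CPM in WT. INPP5K, which encodes another inositol phosphatase, lay on both sides of WT, with 16.1 CPM for shRNA 1, 23.8 CPM for shRNA 2 and 19.4 CPM in WT.

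The AKT phosphatases and kinases lay mostly below WT without passing. PHLPP1, which removes the activating hydrophobic motif phosphate from AKT, had 21.7 and 20.7 CPM with the hairpins and 30.7 CPM in WT, a log2 change of -0.53 ± 0.20 (SE, adjusted p = 0.107). PHLPP2, its paralog, had 40.2 CPM with shRNA 1, 25.7 CPM with shRNA 2 and 35.5 CPM in WT, the widest gap between hairpins among the members. AKT1 had 94.8 and 85.5 CPM with the hairpins and 125 CPM in WT, a log2 change of -0.47 ± 0.17 (SE, adjusted p = 0.0941). AKT2 had 70.1 and 61.2 CPM with the hairpins and 85.8 CPM in WT, a log2 change of -0.39 ± 0.17 (SE, adjusted p = 0.178). Both AKT genes were therefore below WT with each hairpin, and AKT1 made up 46.0% and 46.9% of the AKT1 and AKT2 RNA per kilobase in the knockdown libraries and 47.9% in WT. PDPK1, which encodes PDK1, had 68.1 and 65.4 CPM with the hairpins and 62.8 CPM in WT, and 46.2% of its read-length sequences are shared with other genes. The further row with this symbol, a pseudogene in GENCODE, had 3, 2 and 0 counts with shRNA 1, with shRNA 2 and in WT.

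**Figure D2:**
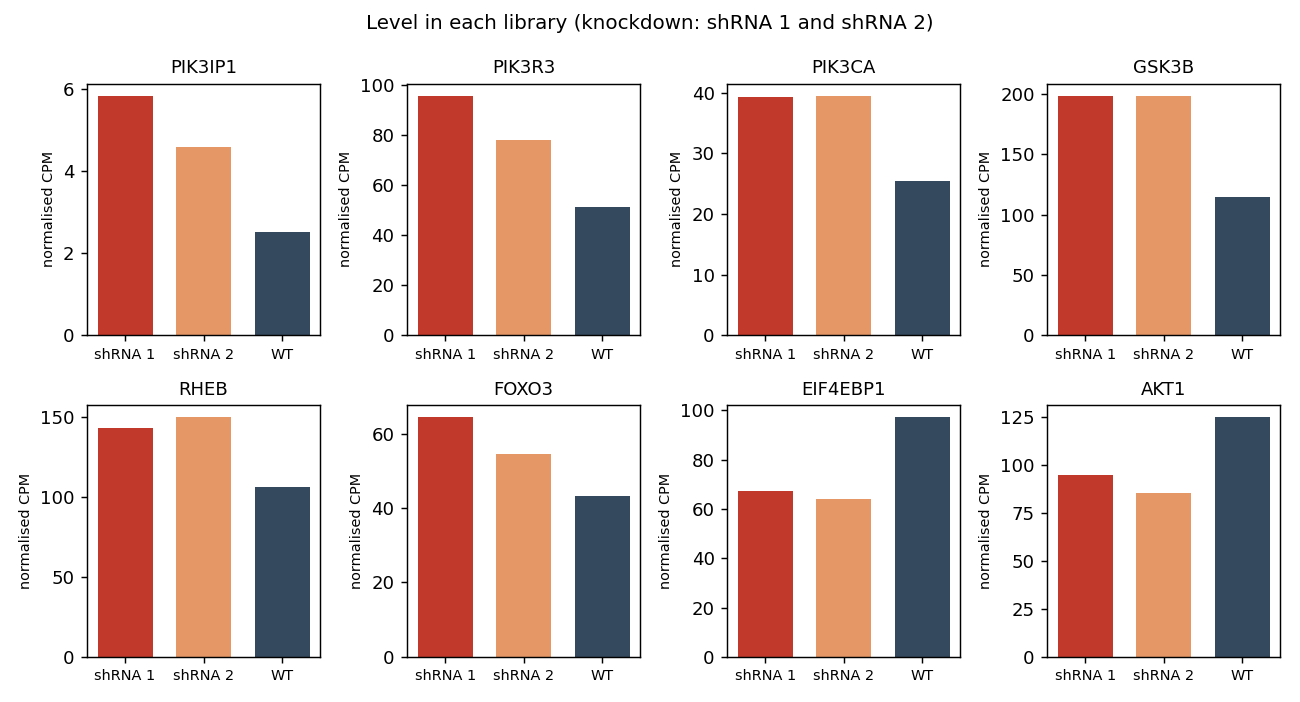
Normalised CPM (y axis, from 0, a scale of its own in each panel) of 8 members in the shRNA 1, shRNA 2 and WT libraries, 1 bar per library and no error bars since each is a single library. Both hairpin bars exceed WT for PIK3IP1, PIK3R3, PIK3CA, GSK3B, RHEB and FOXO3 and fall short of it for EIF4EBP1 and AKT1.

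Among the direct substrates of AKT, GSK3B changed most. GSK3B, a kinase that AKT inhibits and that restrains glycogen synthesis and beta-catenin, had 2279 and 2248 counts with the hairpins and 1142 in WT, or 199 and 199 CPM against 115 CPM. GSK3B rose 1.74-fold, by 0.80 ± 0.18 on the log2 scale (SE, adjusted p = 0.00870), with the 2 hairpins at the same level. Its paralog GSK3A had 53.7 and 59.1 CPM with the hairpins and 64.7 CPM in WT and did not pass. Per kilobase of the longest transcript (7.71 kb for GSK3B, 3.52 kb for GSK3A), GSK3B made up 62.9% and 60.6% of GSK3 RNA in the knockdown libraries and 44.7% in WT. On that scale GSK3B was the more abundant paralog with each hairpin and GSK3A in WT, an order that depends on the lengths used. In CPM, GSK3B was the higher one in each library. FOXO3 had 64.4 and 54.5 CPM with the hairpins and 43.3 CPM in WT, a log2 change of 0.46 ± 0.18 (SE, adjusted p = 0.137). Its copy FOXO3B, which takes up 13.2% of the read-length sequences of FOXO3, had 27 and 26 counts with the hairpins and 44 in WT, and with both summed the change was 0.37. FOXO1 had 106 and 98.4 CPM with the hairpins and 89.8 CPM in WT. FOXO4 had 8.55 and 7.52 CPM with the hairpins and 8.13 CPM in WT. AKT1S1, which encodes the mTORC1 inhibitor PRAS40, had 48.0 and 44.7 CPM with the hairpins and 58.4 CPM in WT.

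**Figure D3:**
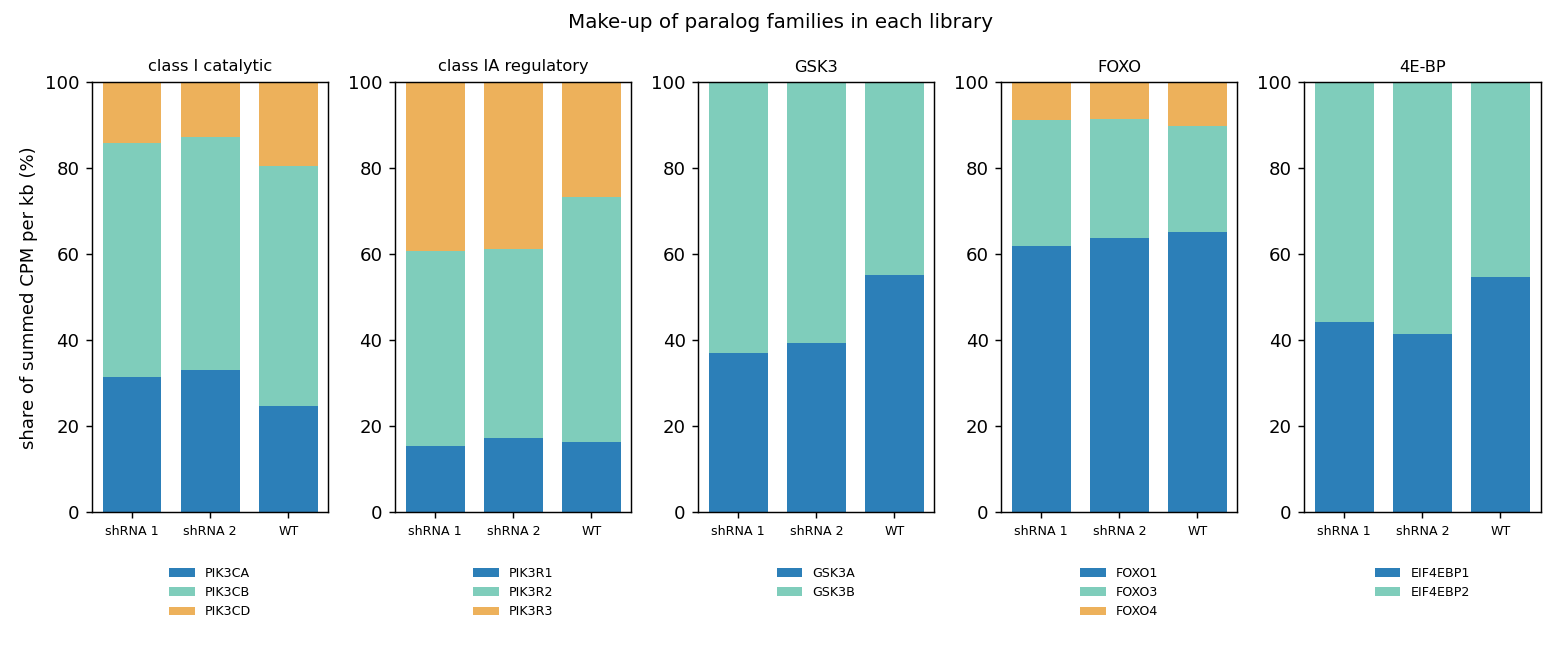
Share of each paralog in the summed CPM per kilobase of its family (y axis, %) in the shRNA 1, shRNA 2 and WT libraries, for 5 families. GSK3B takes 62.9% and 60.6% with the hairpins against 44.7% in WT, and PIK3R3 39.3% and 38.8% against 26.6%.

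The mTOR kinase gene itself was near the WT level, with 75.7 and 69.4 CPM with the hairpins and 73.5 CPM in WT, and a log2 change of -0.02 (95% interval -0.38 to 0.34). RPTOR, the scaffold of mTORC1, had 24.8 and 21.4 CPM with the hairpins and 24.5 CPM in WT. RICTOR, the scaffold of mTORC2, had 33.0 and 39.4 CPM with the hairpins and 25.6 CPM in WT, a log2 change of 0.50 ± 0.20 (SE, adjusted p = 0.134). MLST8, a subunit of both complexes, had 47.9 and 38.9 CPM with the hairpins and 57.0 CPM in WT, below WT with each hairpin (adjusted p = 0.197). RHEB, the GTPase that activates mTORC1, had 1645 and 1695 counts with the hairpins and 1060 in WT, a log2 change of 0.46 ± 0.17 (SE, adjusted p = 0.109). The pseudogene RHEBP1 went the other way, with 405 and 493 counts with the hairpins and 740 in WT, and fell by 0.91 ± 0.18 (SE, adjusted p = 0.00362). Of its read-length sequences, 100% occur in other genes, 48.5% in RHEB and 91.9% in RHEBP2, so no read could be assigned to RHEBP1 alone. For RHEB the shared part is only 6.64%. Whether the RHEBP1 counts came from RHEB RNA was not tested. Summed with RHEBP1, RHEB changed by 0.04 (adjusted p = 0.910).

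Of the mTORC1 substrates, EIF4EBP1, a repressor of cap-dependent translation that binds EIF4E, had 771 and 723 counts with the hairpins and 968 in WT. These equal 67.3 and 63.9 CPM in the knockdown libraries and 97.1 CPM in WT, and EIF4EBP1 fell by 0.57 ± 0.17 on the log2 scale (SE, adjusted p = 0.0416). The call was lost with DESeq2's Wald test (adjusted p = 0.195), and the change was -0.25 with the GC trend removed (adjusted p = 0.435). EIF4EBP2, its paralog, had 602 and 641 CPM with the hairpins and 573 CPM in WT and did not pass. Per kilobase of the longest transcript (1.02 kb for EIF4EBP1, 7.26 kb for EIF4EBP2), EIF4EBP1 was the most abundant member in WT. EIF4EBP2 was the most abundant with each hairpin, at 82.9 and 88.3 CPM per kilobase, against 78.9 in WT. This order too depends on the lengths used. RPS6KB2, which encodes an S6 kinase, had 26.5 and 24.3 CPM with the hairpins and 36.8 CPM in WT, a log2 change of -0.53 ± 0.19 (SE, adjusted p = 0.0936). RPS6KB1, the better studied S6 kinase gene, had 53.1 CPM with shRNA 1, 73.8 CPM with shRNA 2 and 55.5 CPM in WT, so the hairpins lay on both sides of WT.

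At the top of the pathway none of the 5 receptor and adaptor genes passed, and none had an unadjusted p below 0.05. Their log2 changes were 0.09 for GAB1, 0.10 for IGF1R, 0.15 for IRS2, 0.18 for IRS1 and 0.20 for INSR. IRS1 and IRS2, the docking proteins of the insulin and IGF1 receptors, had 71.4 and 81.1 CPM (IRS1) and 38.5 and 37.1 CPM (IRS2) with the hairpins, against 67.4 and 34.1 CPM in WT. INSR, the insulin receptor, had 18.9 and 17.7 CPM with the hairpins and 16.0 CPM in WT. IGF1R had 14.6 and 11.5 CPM with the hairpins and 12.1 CPM in WT. GAB1 had 29.4 and 32.4 CPM with the hairpins and 29.1 CPM in WT. The upper 95% limit of these changes was at most 0.65, reached by INSR.

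The 2 hairpins gave similar values for most members. Among the 38 members with a count in WT, the log2 difference of shRNA 2 minus shRNA 1 had a median size of 0.14, and 24 were below 0.2 in size. The differences ran from -0.64 in PHLPP2 to 0.55 in INPP5K, and HDAC2 itself differed by 0.62 between hairpins. With 1 library per hairpin, these differences have no test, and they were not set beside those of all genes tested.

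The members' changes moved with the base composition of their transcripts. Of the 14 members whose longest transcript had a GC content at or below 47.95%, the median of all genes tested, 12 stood above WT with both hairpins and none below. Of the 25 members with a higher GC content, 8 stood above WT with both hairpins and 10 below. Over 38 members the correlation of GC content with log2 change was -0.68 (Pearson) and -0.77 (Spearman), as a description over genes that share the same 3 libraries. Over all genes tested, 39.9% stood above WT with both hairpins and 39.3% below, without a split by GC content. Whether the members differ from other genes of like GC content was not tested. With the GC trend of all genes removed the Pearson correlation over the members was -0.16, no member passed the same edgeR test, and 422 of all genes passed (2.91%, 154 up and 268 down, against 575 and 546 before). An unadjusted p below 0.05 was then reached by 7 of 39 members (17.9%), near the 17.0% of all genes, so the share of 41.0% against 23.5% was not kept. The fit with the trend removed had a median of 9.44 prior degrees of freedom, against 18.9 before, which by itself raises p-values. How much of the loss of calls came from this was not tested. DESeq2's Wald test, without GC removal, called 1 member, GSK3B, and 2.11% of all genes. With the trend removed, GSK3B had a log2 change of 0.62 (adjusted p = 0.0655), PIK3R3 0.71 (adjusted p = 0.0637) and PIK3IP1 1.17 (adjusted p = 0.149). PIK3CA and EIF4EBP1 had the lowest and the highest transcript GC content of the 39 members (34.8% and 65.5%). Removing the trend also turned the sign in PIK3CB, PIK3R1, PIK3R2, PIK3C2B, INPPL1, FOXO4, MTOR, RPTOR, RPS6KB1, EIF4EBP2 and GAB1, none of which passed in either fit. The shares within paralog families were not adjusted for GC content.

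**Figure D4:**
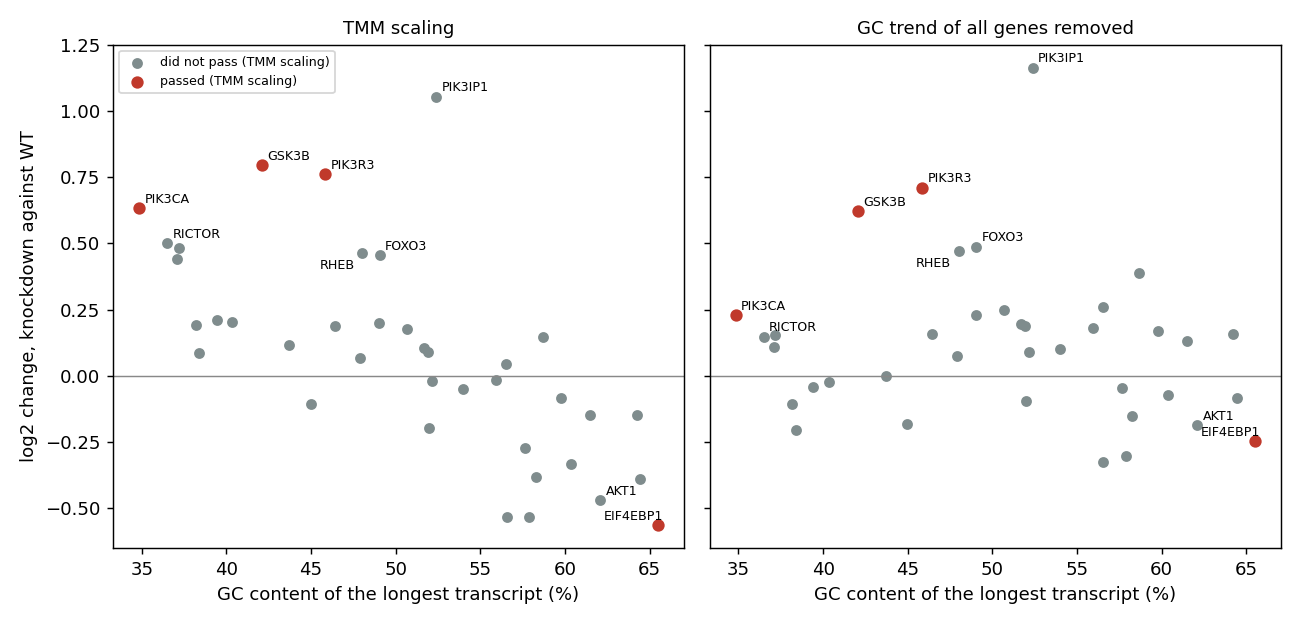
Log2 change of knockdown against WT (y axis) against the GC content of the longest transcript (x axis, %) for 38 members, with TMM scaling on the left and with the GC trend of all genes removed on the right; red points passed the test with TMM scaling. The slope on the left (Pearson -0.68) is nearly flat on the right (-0.16), where PIK3IP1, PIK3R3 and GSK3B are still the highest points.

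A further 136 genes around the pathway were listed by function, with earlier results of these data known, and 118 of them could be tested. Of these, 9 rose (7.63%, against 3.96% of all genes) and 2 fell (1.69%, against 3.76% of all genes), with a median log2 change of 0.05. The same background shares apply to each of the lists that follow. In the list of class III and other PI3K subunits, 2 of 5 fell and none rose. PIK3R5 and PIK3R6 encode the regulatory subunits of the gamma isoform of PI3K. PIK3R5 had 106 and 117 counts with the hairpins and 214 in WT, and fell by 1.13 ± 0.22 on the log2 scale (SE, adjusted p = 0.00319). PIK3R6 had 95 and 61 counts with the hairpins and 153 in WT, and fell by 1.16 ± 0.27 (SE, adjusted p = 0.0117). Their catalytic partner PIK3CG had 0 counts in all 3 libraries. On the receptor side 0 of 15 passed. An unadjusted p below 0.05 was reached by 4 of them (26.7%), 2 upward and 2 downward, near the 23.5% of all genes. Among the other lipid phosphatases and AKT modulators 1 of 26 rose and none fell. That gene was MTM1, a phosphoinositide phosphatase, with a log2 change of 0.91 ± 0.24 (SE, adjusted p = 0.0233).

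Of 29 partners of the mTOR complexes and regulators of their GTPases, 1 rose and none fell. LAMTOR3, a subunit of the Ragulator complex that anchors mTORC1 activation at lysosomes, had 657 and 633 counts with the hairpins and 252 in WT. LAMTOR3 rose 2.24-fold, by 1.16 ± 0.19 on the log2 scale (SE, adjusted p = 8.33e-04). TSC1 and TSC2, which restrain RHEB, changed by -0.02 and 0.00. Of 18 mTORC1 effectors in translation 1 rose and none fell. PDCD4, an inhibitor of the translation helicase EIF4A, rose by 0.73 ± 0.22 (SE, adjusted p = 0.0425) and 24.8% of its read-length sequences occur in other genes too.

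Of 25 FOXO target genes, 6 rose and none fell, where 3.96% of all genes rose, with a median log2 change of 0.28, and 18 stood above WT with both hairpins and 4 below. The list was chosen with earlier results of these data known, so these counts describe it and are no test of FOXO targets as a group. SESN3, a sestrin that restrains mTORC1, had 1435 and 1608 counts with the hairpins and 517 in WT. SESN3 rose 2.58-fold, by 1.37 ± 0.19 on the log2 scale (SE, adjusted p = 2.25e-04). GADD45A, a stress-induced growth arrest gene, had 180 and 180 counts with the hairpins and 66 in WT, and rose by 1.25 ± 0.25 (SE, adjusted p = 0.00400). The other 4, named after their values were seen, were SESN1 (1.06), KLF6 (0.87), CCNG2 (0.84) and MAP1LC3B (0.68). CDKN1B and TXNIP, also well known targets but named outside the rule used for the lists, changed by -0.02 and 0.02. For each the hairpins lay on both sides of WT, at -0.15 (shRNA 1) and 0.10 (shRNA 2) for CDKN1B and 0.37 and -0.44 for TXNIP. Other targets that did not pass included BCL2L11 (0.50) and PDK4 (0.44), above WT with both hairpins, and BCL6 (-0.52), below WT with both. RNA levels do not report FOXO protein, phosphorylation or location. With the GC trend of all genes removed, PIK3R5, LAMTOR3, SESN3, GADD45A, SESN1, KLF6 and MAP1LC3B still passed, and MTM1, PDCD4 and CCNG2 did not. PIK3R6 has no GC value in the reference, so its change could not be corrected.

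**Figure D5:**
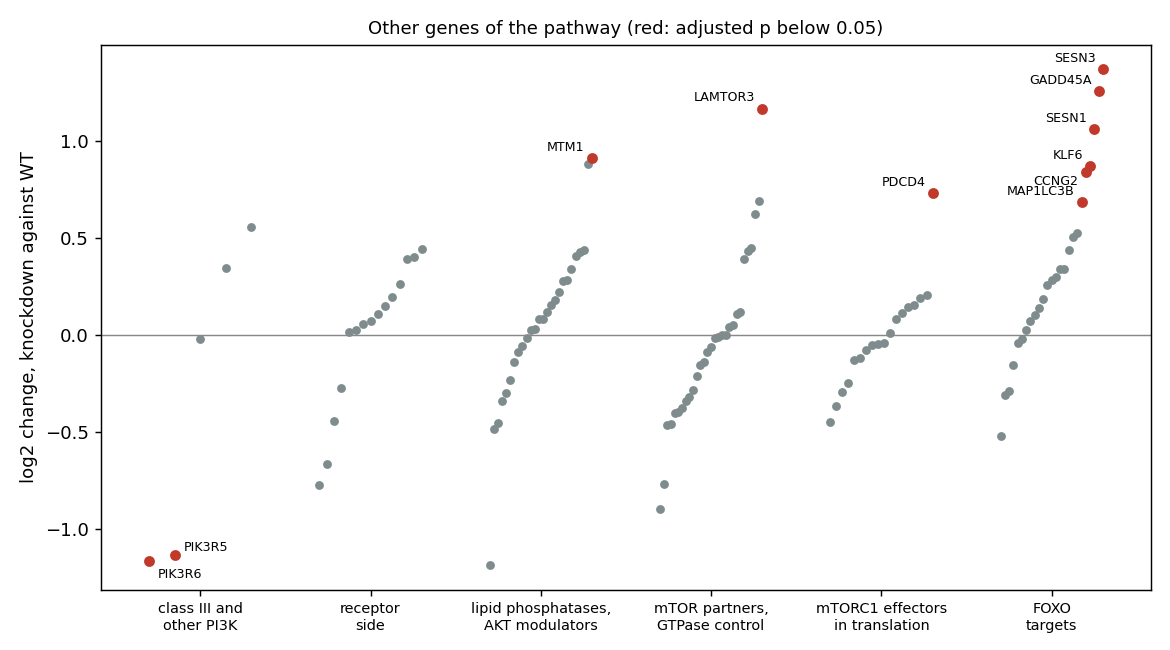
Log2 change of knockdown against WT (y axis) of 118 further pathway genes, sorted within 6 functional lists along the x axis, with genes that passed the test in red and named. FOXO targets hold 6 red points, all above 0, and PIK3R5 and PIK3R6 are the 2 red points below 0.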

How the data were processed

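Total RNA was sequenced as 75-base reads from 3 TOV21G libraries, 1 per shRNA against HDAC2 and 1 WT. The deposited table gives estimated counts, already whole, for Ensembl genes. The submitters' processing notes list the tools RSEM 1.2.3 and edgeR and the build hg19, without their roles. The sources used here do not say whether strand was used in counting. As background, RSEM divides reads that fit several genes by a model.

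Rounding changed 0 values. Of 57736 rows, 34038 had no count, and 14524 passed filterByExpr. The test was edgeR's quasi-likelihood test (R 4.3.3, edgeR 4.0.16) after TMM scaling, with Benjamini-Hochberg adjustment over all genes tested, threshold 0.05, on 1 residual and 18.9 prior degrees of freedom. It was also run on simulated counts in which WT varied like the knockdown libraries. That run cannot check whether the lone WT library does so here. SE and 95% intervals come from the estimate and its F statistic, so 1 WT library limits them. Changes of 1 hairpin use a prior count of 2. A count of 3, the limit that 0 allows, equal 0.262, 0.265 and 0.301 CPM for shRNA 1, shRNA 2 and WT, and such limits and Poisson intervals cover counting error only.

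Where a symbol stood in 2 rows, the row with more counts was used. GENCODE 29 (GRCh38) gave positions, transcript length and GC content (known for 97.2% of genes tested), and sequences of 75 bases shared between genes. Levels per kilobase use the length of the longest transcript of each gene, which need not be the one expressed. RefSeq gave promoters. The members, the other pathway genes and the marker lists were chosen with earlier results of these data known. All members were described, and of the other lists up to 2 rising and 2 falling genes by size of change. Further genes of these lists were named outside that rule. Alternatives were other scalings and filters, DESeq2 1.42.0, a likelihood ratio test, GC trend removal and summing of genes that share reads.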

Additional observations from a re-analysis of the deposited data

How the results depend on the processing

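All genes passing numbered 1121 in the comparison as reported, 1019 with DESeq2 size factors and 1463 with library size alone. Without a filter on low counts 0 of 23698 genes passed edgeR's test (2486 at an unadjusted p below 0.05), with DESeq2's Wald test 306 passed, and with the GC trend removed 422. Members passing numbered 4 as reported, 0 without a filter (10 unadjusted), 1 with DESeq2's Wald test, 0 with the GC trend removed (7 unadjusted) and 3 to 5 under the other settings, 5 only with INPP5D, which entered through the knockdown libraries alone. The members' median log2 change was 0.12 with library size alone, 0.079 with upper quartile scaling, 0.07 at a mean count of at least 50 and 0.13 with the GC trend removed, against 0.09 as reported. Leaving out a knockdown library gave medians of 0.11 to 0.12 and PIK3IP1 changes of 0.83 to 1.16, as values with no test, since 1 library against 1 leaves no residual degree of freedom. PIK3CA had an adjusted p of 0.0569 with DESeq2 size factors, 0.0583 with upper quartile scaling, 0.0586 at a mean count of at least 50 and 0.284 with the Wald test. At a mean count of at least 50, PIK3IP1 and INPP5D were not tested. With the GC trend removed, changes took the other sign in GAB1 (-0.20), RPS6KB1 (-0.11), PIK3CB (-0.042), PIK3R1 (-0.023), EIF4EBP2 (-0.003), MTOR (0.088), PIK3C2B (0.10), INPPL1 (0.13), PIK3R2 (0.16), RPTOR (0.17) and FOXO4 (0.18). With library size alone, MTOR (0.015) and FOXO4 (0.017) did. None of these passed in either. No paired analysis was possible because WT has 1 library, so the groups share fewer than 2 replicate numbers. The cause of these shifts was not tested. PIK3IP1 did not pass under any setting that gave it an adjusted p (DESeq2's Wald test gave none), and summing genes that share reads was chosen in part after seeing the data (RHEB with RHEBP1, FOXO3 with FOXO3B).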
